A study of Mus musculus with 38 samples.

Results

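The heat shock and chaperone genes described here are Hspa1a, Hspa1b, Hspa8, Hspb1, Hsph1, Hsp90aa1, Dnajb1, Bag3, Hspd1 and Hspe1, followed in brown adipose tissue of C57BL/6J mice over a feeding time course. A gene was taken as measured where the gene name of a probe equalled any of these 10 symbols, and 9 of the 10 were, out of 29411 gene names on the array. No probe carried the name Hspa1b, although 2 of the 4 probes named Hspa1a also list a transcript of Hspa1b. The 9 measured genes comprised 7 chaperones of the cytosol and 2 of the mitochondrion, and all 9 were among the 21862 genes bright enough to be tested.

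Mice weaned at 3 to 4 weeks of age were divided into 5 groups of 30 animals. The LFC group received the normal diet with 10% of calories from fat, and the HFC group received a high fat, high sucrose diet with 60% of calories from fat. The HF5, HF20 and HF75 groups received that same high fat diet together with 5, 20 or 75 µg of Kal-1, an aqueous botanical formulation. RNA was hybridised to 1-colour Agilent arrays, with 1 array for each group and time point. LFC and HFC had 10 arrays each, at Days 6, 10 and 14 (D6, D10, D14) and Weeks 0 to 18 in steps of 3 (W0 to W18), and each Kal-1 group had 6, at W3 to W18. The labels do not say whether an array held the RNA of 1 mouse or of several, so the time points are the only replicates and a p-value measures the spread between arrays of different time points. Levels are given as log2 of the processed spot signal minus log2 of the 75th percentile of the same array, using the probe with the highest mean where a gene had several.

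Heat shock proteins of the Hsp70 and Hsp90 families bind other proteins while these fold, and release them through cycles of ATP hydrolysis. In the cytosol, Hspa1a and Hspa1b encode the inducible Hsp70 and Hspa8 encodes the constitutive one. Dnajb1 encodes an Hsp40 cochaperone that stimulates the Hsp70 ATPase, Bag3 and Hsph1 encode nucleotide exchange factors of Hsp70, Hsp90aa1 encodes an inducible form of Hsp90, and Hspb1 encodes a small heat shock protein that holds unfolded proteins without using ATP. The inducible genes are switched on by the transcription factor Hsf1, which binds arrays of short inverted GAA units called heat shock elements. Hspd1 and Hspe1 encode Hsp60 and Hsp10, which together form the folding chamber of the mitochondrial matrix and are transcribed in opposite directions from a shared promoter. Brown adipose tissue is rich in mitochondria and burns fat to make heat.

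The start regions of these genes are shown because the members described below moved as groups, and because Hspa1a and Hspa1b cannot be separated by all probes. RefSeq windows of build GRCm38.p6, from 250 bases before to 50 after each gene start, were on hand for 8 of the 10 members, in 11 windows, and for neither Hspa8 nor Hsp90aa1. They were searched for a 2-unit heat shock element in either order (GAANNTTC or TTCNNGAA, each its own reverse complement). Of the 11 member windows 8 held at least 1 such element, where 15.1% of all 32851 windows did. The 8 are not separate sequences. Both windows of Hsph1 overlap, Hspe1 shares its elements with 1 window of Hspd1, and Hspa1a and Hspa1b are nearly alike. Windows with 3 or more made up 0.256% of all windows and included those of Hspe1 and Hsph1 and 1 of the 2 windows of Hspd1, the other of which held 0. These overlapping elements include 3-unit elements, which 0.603% of all windows held. In the sequences below, read 5′ to 3′ on the strand of the gene, capitals mark the 2-unit elements.
Hspa1a, chr17:34972157-34972406, minus strand: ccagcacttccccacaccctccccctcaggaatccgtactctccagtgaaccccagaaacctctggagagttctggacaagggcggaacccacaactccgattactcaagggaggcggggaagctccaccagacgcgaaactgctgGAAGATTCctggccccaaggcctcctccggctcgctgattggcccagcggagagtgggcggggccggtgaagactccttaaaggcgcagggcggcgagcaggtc
Hspa1b, chr17:34959239-34959488, minus strand: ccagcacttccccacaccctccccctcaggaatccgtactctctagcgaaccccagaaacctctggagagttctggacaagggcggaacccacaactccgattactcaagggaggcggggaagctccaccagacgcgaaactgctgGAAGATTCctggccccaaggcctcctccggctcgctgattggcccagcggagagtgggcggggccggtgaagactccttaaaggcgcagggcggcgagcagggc
Hspb1, chr5:135887669-135887918, plus strand: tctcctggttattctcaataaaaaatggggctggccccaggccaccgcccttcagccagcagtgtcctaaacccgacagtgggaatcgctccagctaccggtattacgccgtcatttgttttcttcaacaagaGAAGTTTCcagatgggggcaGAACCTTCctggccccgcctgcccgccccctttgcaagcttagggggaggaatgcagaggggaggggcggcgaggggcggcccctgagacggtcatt
Hsph1, chr5:149636337-149636586, minus strand: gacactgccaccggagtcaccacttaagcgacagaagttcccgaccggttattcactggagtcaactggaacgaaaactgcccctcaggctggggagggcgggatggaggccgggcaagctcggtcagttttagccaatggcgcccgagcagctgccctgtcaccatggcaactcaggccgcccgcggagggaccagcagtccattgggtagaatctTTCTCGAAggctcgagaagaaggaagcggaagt
Hspd1 and Hspe1, the bases between their starts, chr1:55087933-55088147, plus strand: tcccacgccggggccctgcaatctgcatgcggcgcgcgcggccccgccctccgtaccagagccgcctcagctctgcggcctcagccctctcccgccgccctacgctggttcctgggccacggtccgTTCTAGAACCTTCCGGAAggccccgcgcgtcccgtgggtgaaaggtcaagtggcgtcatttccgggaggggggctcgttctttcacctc

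Hspa1a and Hspa1b each held 1 element, at the same place in the window, 104 bases before the start. Their 300-base windows differed at 4 positions. Hspb1 held 2 separate elements, which began 117 and 97 bases before the start. Between Hspd1 and Hspe1, 3 elements overlap in a single run of capitals within the 215 bases that separate the starts. Hsph1 has 1 element before its start and 2 after it. The 1 element of Bag3 lies after its start, and neither window of Dnajb1 held one. A match of letters is a description of the sequence and says nothing of binding in this tissue.

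The probes decide what was measured. They are 60 bases long, and the files give no genome position for any of the 15 probes of the members. Capitals are not used in these probe sequences. Shown are the part of Hspa1a that both genes can bind, the part that only Hspa1a was listed for, and the Hspb1 probe. The Hspd1 probe shown is not the one its levels and fits use, but the dimmer one set beside it below.
Hspa1a, probe that also lists Hspa1b and was never saturated: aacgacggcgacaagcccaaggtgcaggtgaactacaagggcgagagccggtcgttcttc
Hspa1a, the other probe that also lists Hspa1b: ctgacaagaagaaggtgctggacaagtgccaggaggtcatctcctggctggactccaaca
Hspa1a, the 30 bases shared by both probes that list Hspa1a alone: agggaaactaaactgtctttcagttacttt
Hspb1: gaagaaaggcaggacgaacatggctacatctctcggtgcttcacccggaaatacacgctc
Hspd1, the dimmer of its 2 probes, never saturated: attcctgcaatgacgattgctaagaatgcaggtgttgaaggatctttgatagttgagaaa

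The arrays differed in brightness. The 75th percentile of the signal was 625 to 1209 intensity units on 11 arrays, called bright here, and 35.1 to 430 on the other 27, called dim. These classes are not groups of the study. LFC had 4 bright arrays of 10 (W0, W3, W9, W12), HFC 2 of 10 (D10, W3), HF5 0 of 6, HF20 4 of 6 (W3, W6, W12, W15) and HF75 1 of 6 (W3). The arrays were scanned on 12 days, and 7 of the 10 time points held arrays of both classes. In tissue, fewer cells of a type and less RNA per cell cannot be told apart.

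Hspa1a, the inducible Hsp70, had the widest range of the members. In LFC its level was lowest at -0.83 (W12), had a median of 7.75 and was highest at 8.77 (W18). In HFC the lowest was 3.52 (D10), the median 7.64 and the highest 8.58 (D6). All 6 HF5 arrays lay between 8.02 and 8.59. In HF20 the lowest was 0.16 (W6), the median 5.91 and the highest 8.90 (W18), and in HF75 these were 5.00 (W3), 8.34 and 9.40 (W18). All values under 7.07 came from bright arrays. The 11 bright arrays had -0.83 to 6.86 and the 27 dim arrays 7.07 to 9.40, so that the classes did not overlap.

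**Figure D1:**
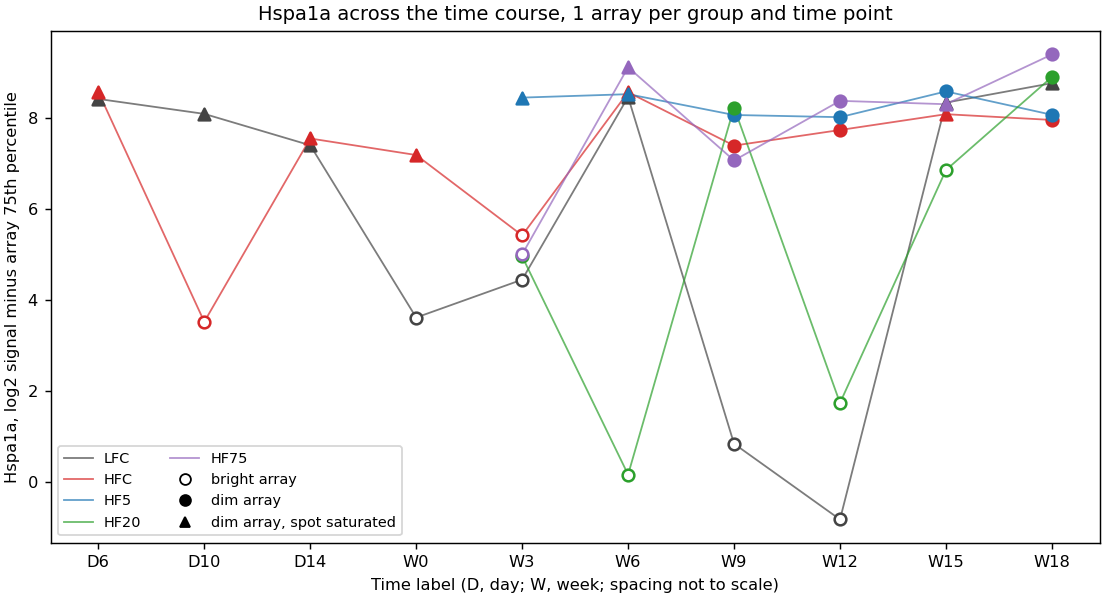
Level of Hspa1a (log2 signal minus the 75th percentile of the array) at each time label, 1 line per group and 1 point per array. Open points are bright arrays, filled points dim arrays, and triangles mark dim arrays on which the spot was saturated. The open points lie between -0.83 and 6.86, below every filled point.

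The spot of Hspa1a was saturated on 15 arrays, all of them dim, so those levels are lower limits. The 4 Hspa1a probes gave the same order of the classes. The probe that was never saturated ranged from -7.68 to -0.16 on bright arrays and from 0.48 to 4.54 on dim arrays. Probes of the 2 kinds also followed each other on the bright arrays, with r of 0.92 and 0.95 between the probe used and those that list Hspa1b. On the dim arrays these values were 0.40 and 0.19.

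Hspb1, the small heat shock protein, was the other member without overlap, at 2.52 to 5.29 on bright arrays and 6.04 to 8.49 on dim arrays. Of all genes tested, 2.28% had every bright array below every dim array and 0.553% had every bright array above. Under quantile normalization the Hspa1a classes overlapped and those of Hspb1 did not. With background correction by normexp, or without scaling between arrays, both overlapped.

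Hsph1, the Hsp110 exchange factor, ranged from 1.86 to 4.86 over 10 bright arrays and from 3.35 to 7.99 over the dim ones. Its spot on the HFC array of D10 was marked as an outlier by the scanner software and left out. Hspa8, the constitutive Hsp70, had 4.54 to 6.53 on bright and 6.08 to 8.13 on dim arrays. Hsp90aa1 had 3.99 to 6.24 and 4.70 to 7.73, Dnajb1 3.28 to 6.05 and 3.95 to 6.87, and Bag3 1.78 to 3.46 and 2.22 to 5.23. These 5 cytosolic members overlapped between the classes, with lower ends on the bright arrays. The Hspa8 spot was saturated on 3 bright arrays and 1 dim array, so those levels are lower limits.

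The mitochondrial pair lay the other way round. Hspd1, which encodes Hsp60, ranged from 3.56 to 6.58 on bright arrays and from 4.32 to 6.49 on dim arrays. Hspe1, which encodes Hsp10, ranged from 2.20 to 5.29 and from 2.66 to 4.87. The lowest bright value of both genes came from 1 array, HF75 at W3, with 3.56 for Hspd1 and 2.20 for Hspe1. On the other bright arrays Hspd1 was at least 5.74. The Hspd1 spot was saturated on 10 of the 11 bright arrays and on none of the dim ones, so those bright levels are lower limits. Hspd1 differences between groups, given further below, include such arrays and are not exact. Its dimmer probe was never saturated and gave a mean of 3.17 on bright and 1.71 on dim arrays.

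**Figure D2:**
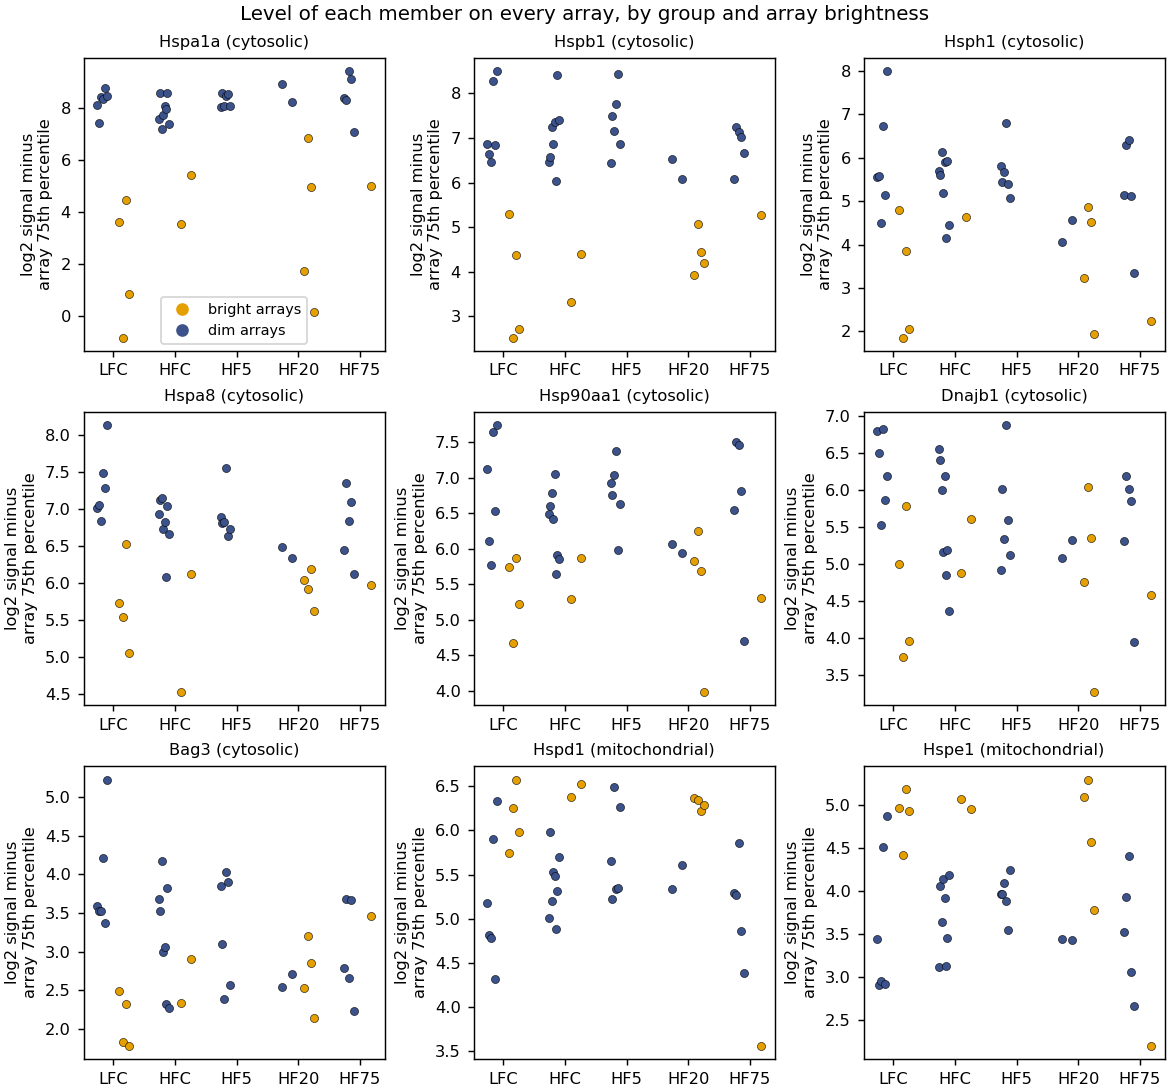
Level of each of the 9 measured members (log2 signal minus the 75th percentile of the array) on every array, by group. Orange points are the bright arrays and blue points the dim arrays. Hspa1a and Hspb1 show no overlap of the colours, while the colours overlap for Hspd1, where 2 of 11 orange points lie above every blue point, and for Hspe1, where 7 of 11 do.

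A limma fit over the 38 arrays, with group and time point in the model, gave bright minus dim differences for all 21862 genes. All 7 cytosolic members were lower on bright arrays. Hspa1a differed by -5.52 (SE 0.61, adjusted p 9.32e-08), Hspb1 by -3.21 (SE 0.30, adjusted p 9.35e-09) and Hsph1 by -2.78 (SE 0.53, adjusted p 0.000102, 37 arrays). Hspa8 differed by -1.59 (SE 0.19), Hsp90aa1 by -1.44 (SE 0.33), Dnajb1 by -1.40 (SE 0.28) and Bag3 by -1.27 (SE 0.26), and each passed the threshold. The Hspa8 spot was saturated on 3 bright arrays and 1 dim array. In plain class means its difference was -1.15, against -0.69 for its other probe, which was never saturated. The 2 probes had r 0.23 on bright and 0.59 on dim arrays. With the mean of both, Hspa8 differed by -1.38 (SE 0.21) in the fit. Hspe1 was higher on bright arrays by 0.90 (SE 0.34, adjusted p 0.0269), and Hspd1 had 0.69 (SE 0.34, adjusted p 0.0800). The value of Hspd1 is a lower limit, since its spot was saturated on 10 of 11 bright arrays, and with the mean of both its probes it was 1.06 (SE 0.31, adjusted p 0.00477). So 8 of the 9 members were called, where 23.5% of the genes tested were called higher and 36% lower, with a median difference of -0.31. With the mean of all probes of a gene, 9 members were called. There 4796 of the 21862 genes were higher and 8626 lower, with a median of -0.40.

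The mitochondrial values rested in part on the HF75 array of W3. Without that array Hspd1 differed by 0.91 (SE 0.28, adjusted p 0.00701) and Hspe1 by 1.12 (SE 0.29, adjusted p 0.00184). Without W3 altogether Hspd1 also passed (adjusted p 0.0288), and Hspe1 did not pass without D10, W0, W9 or W15. The cytosolic members remained below the threshold of 0.05 whichever time point was left out, with Hspa1a between -6.06 and -4.95.

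The classes were defined by the quantity that the scaling removes, and another scaling moved these differences. With no scaling the median over all genes was 2.07. Hspa1a was still lower on bright arrays, at -3.14, while Hspa8 (0.79), Hsp90aa1 (0.94), Dnajb1 (0.98) and Bag3 (1.11) turned positive. Relative to that median all 7 cytosolic members were lower. Hspa1a was at -5.21, Hspb1 at -2.91, Hspa8 at -1.28, Hsp90aa1 at -1.13, Dnajb1 at -1.09 and Bag3 at -0.96, and Hspe1 was at 1.21. Scaling subtracts the same value from every gene of an array. Differences from the median are therefore nearly the same with and without it, and are no separate check. With normexp the median over all genes was -0.76. Hspa1a (-4.60), Hspb1 (-2.29) and Hsph1 (-1.66) passed as lower, and Hspd1 (1.72) and Hspe1 (1.84) passed as higher. The other 4 cytosolic members, Hspa8 (-0.64), Hsp90aa1 (-0.42), Dnajb1 (-0.35) and Bag3 (-0.31), did not pass. Relative to the normexp median these 4 were not lower but higher, at 0.11, 0.34, 0.40 and 0.44. The signs of Hspa1a, Hspb1, Hsph1, Hspd1 and Hspe1 were the same under all 4 treatments, quantile normalization included. Not all of these differences passed in the limma fits. With no scaling Hspb1 (-0.84, adjusted p 0.0543) and Hsph1 (-0.30, adjusted p 0.640) did not. Under quantile normalization Hspe1 (0.64, adjusted p 0.0929) did not, and neither did Hspd1 with the main scaling.

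**Figure D3:**
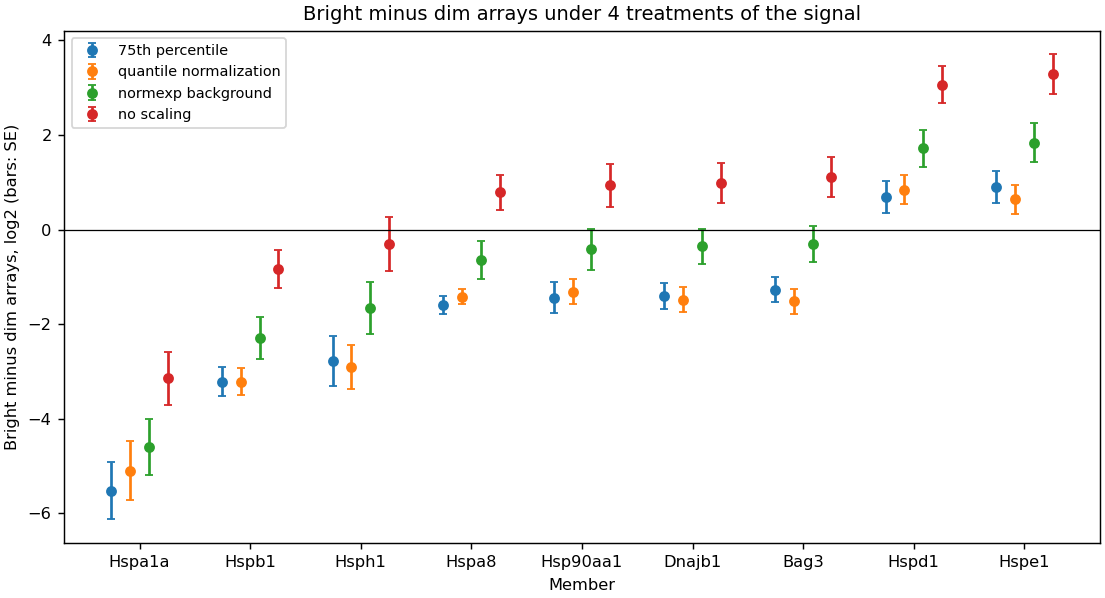
Bright minus dim difference (log2, bars are SE) of each member from limma fits under 4 treatments of the signal. Hspa1a stays between -5.52 and -3.14, Hspd1 and Hspe1 stay above 0, and Hspa8, Hsp90aa1, Dnajb1 and Bag3 are positive only without scaling, where the median over all genes was 2.07 and they lay below it.

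The same order held inside time points. At each of the 7 time points with both classes, the mean of the bright arrays was below that of the dim arrays for all cytosolic members (Hsph1 at the 6 time points where it was measured in both). For Hspa1a this difference ran from -8.51 to -1.47 with a median of -4.57, and for Hspb1 from -4.04 to -1.95. Hspd1 and Hspe1 were higher on the bright arrays at all 7, by 0.39 to 1.21 and by 0.05 to 1.62. How many of all genes kept 1 sign at every such time point was not computed, so these counts are no result about the members. They read the same arrays as the fit above and are no separate check.

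Averaged over the members after centring each on its mean, the 7 cytosolic genes lay below 0 on all 11 bright arrays and above 0 on 23 of 27 dim arrays. The 2 mitochondrial genes lay above 0 on 10 of 11 bright arrays, the HF75 array of W3 being the exception, and below 0 on 18 of 27 dim arrays. Cytosolic minus mitochondrial had a mean of -1.97 ± 1.20 (SD, n = 11) on bright and 0.79 ± 0.56 (SD, n = 27) on dim arrays. By group it was lowest in HF20 (mean -1.23 ± 1.37, SD, n = 6) and highest in HF75 (0.87 ± 0.43, SD, n = 6). The 6 HF20 values ran from -2.84 to 0.43 and the 6 HF75 values from 0.49 to 1.57. These means are descriptions with no test, and HF20 had 4 bright arrays of 6.

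**Figure D4:**
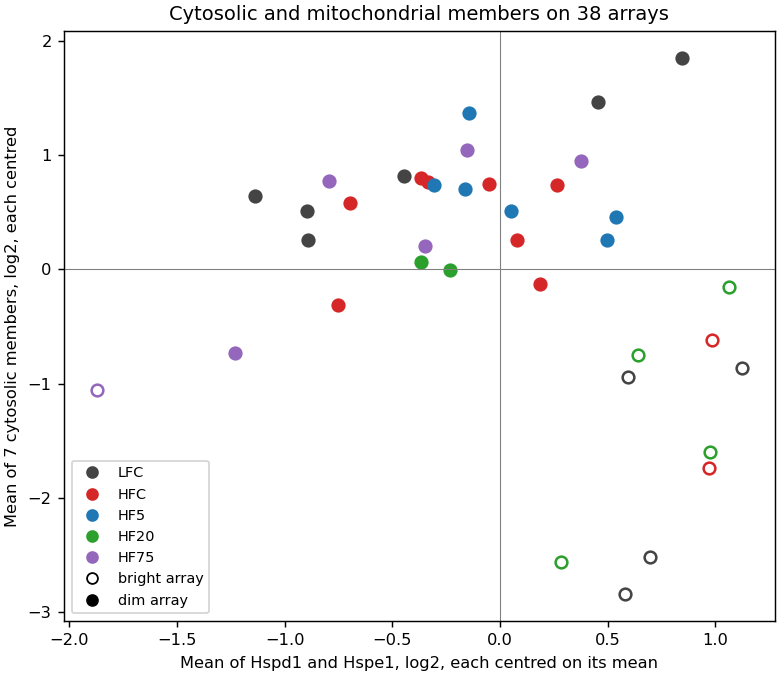
Mean of the 7 cytosolic members against the mean of Hspd1 and Hspe1 on each of the 38 arrays, in log2 with each gene centred on its own mean. Open points are bright arrays and lie below 0 on the cytosolic axis. The open HF75 point at the far left is the array of W3.

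Other genes of the chaperone network were read from lists, given here as bright minus dim counts, to be read against the 23.5% of all genes called higher and the 36% called lower. All 17 mitochondrial chaperones and proteases were called higher on bright arrays, with a median of 1.88. Among them were Trap1, the mitochondrial Hsp90 (2.40, SE 0.29), Hspa9, the mitochondrial Hsp70 (1.86, SE 0.34), and the proteases Lonp1 (1.88, SE 0.23) and Clpp (1.85, SE 0.28). Of 23 further cytosolic Hsp70, Hsp40 and cochaperone genes, 12 were higher and 7 lower, with a median of 0.55. The lower ones included Hspa2 (-2.76, SE 0.41) and the Hsp40 genes Dnajb5 (-2.06, SE 0.28) and Dnaja1 (-1.36, SE 0.40), and the higher ones included the Hsp70 exchange factors Bag4 (1.53, SE 0.23) and Bag1 (1.09, SE 0.23).

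Hsp90 and its cochaperones had 0 higher and 4 lower of 13, among them Hsp90ab1, the constitutive cytosolic Hsp90 (-0.84, SE 0.27), and Stip1, which links Hsp70 to Hsp90 (-0.97, SE 0.35). Their share of lower genes is near that over all genes. Of 9 small heat shock proteins 3 were higher and 1 lower, with Hspb8 at 1.75 (SE 0.38). The TRiC chaperonin, which folds actin and tubulin, had 4 higher of 9, with Tcp1 at 1.15 (SE 0.23). Of 9 endoplasmic reticulum chaperones 1 was higher and 2 lower, both shares below those over all genes. Hsf1 itself was lower on bright arrays (-0.56, SE 0.19) and its binding partner Hsbp1 higher (0.62, SE 0.18), the 2 called among 5 regulators tested.

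Markers of other kinds moved with the same split. All 10 immediate early genes were lower on bright arrays (median -4.03), with Fos at -6.97 (SE 0.67) and Atf3 at -6.10 (SE 0.57). Their summed level, as a multiple of the 75th percentile, ran from 16.7 to 443 on bright and from 234 to 1085 on dim arrays. All 6 erythroid markers (median -2.77, summed level 115 to 220 against 297 to 3794) and all 6 endothelial markers (median -2.54, 17.7 to 144 against 79.7 to 243) were lower too. Of 9 brown adipocyte markers 4 were higher and 1 lower, with a summed level of 107 to 591 on bright and 315 to 2448 on dim arrays. Macrophage markers had 4 higher of 7 (3.66 to 21.1 against 3.06 to 13.7), lymphocyte markers 3 lower of 8 (0.264 to 2.43 against 0.299 to 6.48), and muscle markers 0 of 10 called (0.458 to 413 against 3.41 to 1060). Of the brown adipocyte markers 7 were above background on all 38 arrays, and none of the markers on the array was above background on fewer than 6 arrays. The part of these cells and genes in the members' values was not tested.

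HFC against LFC asks what the high fat diet changed, with 10 time points as pairs. At D6, Hspa1a was 8.42 in LFC and 8.58 in HFC, and at D14 it was 7.40 and 7.55. At W18 it was 8.77 and 7.96. The spot was saturated in both groups at D6, D14, W6 and W15 and in LFC at W18, so these levels are lower limits and their differences measure no change with diet. Where the arrays were of different classes the gap was wide. At D10 the bright HFC array had 3.52 and the dim LFC array 8.09, and at W12 the bright LFC array had -0.83 and the dim HFC array 7.74.

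HFC minus LFC for Hspa1a was 1.44 (SE 1.07, adjusted p 0.658), with the saturated spots named above included. None of the 9 members passed, where 0% of the genes tested did (limma, 0 called, 1527 at an unadjusted p under 0.05). Hspb1 had 0.56 (SE 0.70), Hspd1 0.01 (SE 0.25) and Hspe1 -0.15 (SE 0.30), and the adjusted p of the members ran from 0.658 to 0.987. Leaving out a time point moved Hspa1a to between 0.65 (without W12) and 2.11 (without D10), and it was 0.88 without W9. At the 6 time points where both arrays were of the same class, 5 of which had a saturated Hspa1a spot, its value was 0.05 (SE 0.24), which gives no measure of the diet. The Hspa1a probe that was never saturated had a mean difference of -0.23 ± 1.11 (SD, n = 6) there, from -1.68 (W18) to 1.36 (W3), and was higher in HFC at 3 of the 6. At the other 4 the probe used differed by -4.57 (D10, HFC bright) and by 3.58, 6.56 and 8.57 (W0, W9, W12, LFC bright). Hspb1 turned to -0.31 (SE 0.20, adjusted p 0.837) at the time points of the same class.

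**Figure D5:**
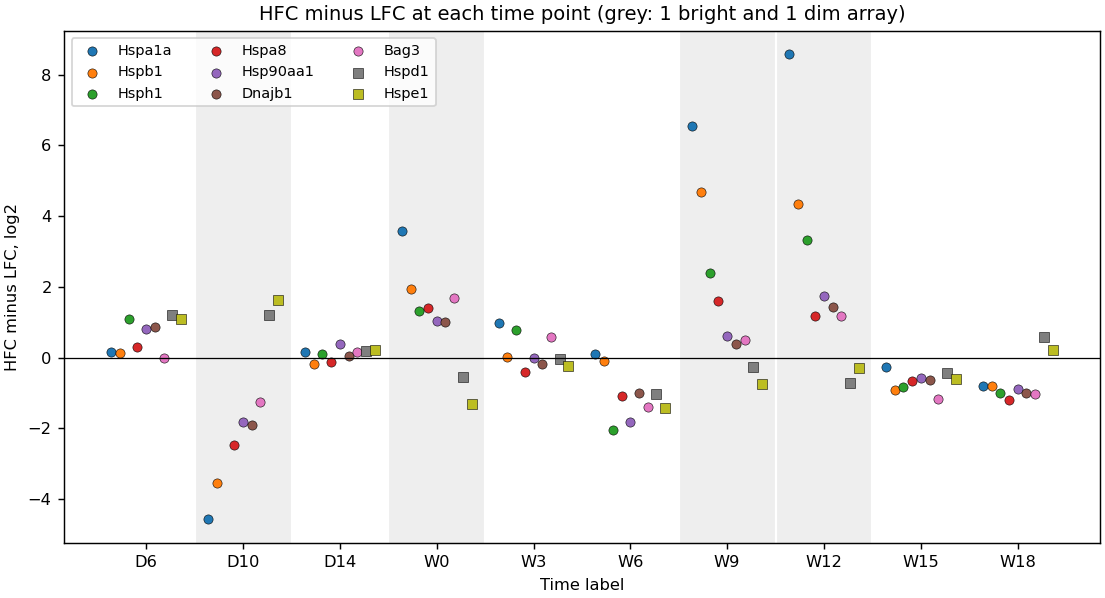
HFC minus LFC (log2) at each time label for the 9 members. Circles are cytosolic and squares mitochondrial members, and grey bands mark time points with 1 bright and 1 dim array. Hspa1a reaches -4.57 and 8.57 inside the bands and lies between -0.81 and 0.97 outside them, where its spot was saturated on both arrays at D6, D14, W6 and W15 and on the LFC array at W18.

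Over W3 to W18 alone, with all 30 arrays of those weeks in the fit, HFC minus LFC for Hspa1a was 2.52 (SE 1.35, adjusted p 0.367) and for Hspb1 1.21 (SE 0.73, adjusted p 0.405). No member passed, where 0.00915% of the genes did (2 genes, 3158 at an unadjusted p under 0.05).

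The Kal-1 comparisons ask what each dose changed on the high fat diet, and they share the 6 HFC arrays of W3 to W18. For HF5 all arrays were dim, and the 6 Hspa1a levels were 8.45, 8.53, 8.07, 8.02, 8.59 and 8.07 from W3 to W18, against 5.42, 8.57, 7.40, 7.74, 8.09 and 7.96 in HFC. The wide gap is at W3, where the HFC array was bright. Of these levels, those of HF5 at W3 and W6 and of HFC at W6 and W15 are lower limits. HF5 minus HFC was 0.76 for Hspa1a (SE 1.35, adjusted p 0.933) and 0.66 for Hsp90aa1 (SE 0.48, adjusted p 0.834). No member passed, where 0% of the genes did (limma, 0 called, 1192 at an unadjusted p under 0.05).

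In HF20 the Hspa1a levels were 4.96, 0.16, 8.23, 1.73, 6.86 and 8.90 from W3 to W18. The 2 highest came from the dim arrays of W9 and W18, on which the spot was not saturated. HF20 minus HFC was -2.39 for Hspa1a (SE 1.35, adjusted p 0.201), -1.70 for Hspb1 (SE 0.73, adjusted p 0.126) and 0.45 for Hspd1 (SE 0.40, adjusted p 0.410). No member passed, where 0% of the genes did (limma, 0 called, 7250 at an unadjusted p under 0.05). At the 3 time points where both arrays were of the same class, Hspa1a had 0.44 (SE 0.46), Hspb1 -0.25 (SE 0.50) and Hspd1 0.02 (SE 0.38). At the other 3, where HF20 was bright, Hspa1a had -8.41 to -1.23. The HFC spot was saturated at W6 and W15, so the sizes of those gaps are lower limits. Over all 6, leaving out W6 moved Hspa1a to -1.18 and leaving out W18 to -3.05.

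In HF75 the Hspa1a levels were 5.00, 9.12, 7.07, 8.38, 8.31 and 9.40, lower limits at W6 and W15. Each HF75 array was of the same class as its HFC partner. HF75 minus HFC was 0.35 for Hspa1a (SE 1.35, adjusted p 0.928), -0.70 for Hspd1 (SE 0.40, adjusted p 0.572) and -0.66 for Hspe1 (SE 0.41, adjusted p 0.590). The lowest single differences of the mitochondrial pair were -2.97 for Hspd1 and -2.74 for Hspe1, both at W3. Without W3 both genes had -0.25, and without W18 they had -1.04 and -1.05. No member passed, where 0% of the genes did (limma, 0 called, 1999 at an unadjusted p under 0.05).

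A moderated F test asked whether the 3 doses differed from each other. No member passed, where 13.4% of the genes tested did (2921 genes). Hspb1 came nearest (HF20 minus HF5 -2.31, HF75 minus HF5 -0.79, adjusted p 0.0656), followed by Hspd1 (HF20 minus HF5 0.31, HF75 minus HF5 -0.85, adjusted p 0.0870). The Hspd1 values include bright arrays with a saturated spot. With the mean of both its probes, 1 of them never saturated, Hspd1 passed (HF75 minus HF5 -0.88, adjusted p 0.0339). In the chaperone lists 11 of the 17 mitochondrial genes passed, among them Trap1 (HF20 minus HF5 2.19, adjusted p 0.0343) and Lonp1 (1.32, adjusted p 0.0352). Of the cytosolic Hsp70 and Hsp40 list 4 of 23 passed, and over all 7 lists 21 of 85. With the brightness class as a covariate 0 genes passed this test.

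A further pair of fits followed time on the diet in LFC and HFC, with W0 at day 14. The trend shared by both diets was 0.26 per 100 days for Hspa1a (SE 1.25, adjusted p 0.921) and -0.49 per 100 days for Dnajb1 (SE 0.43, adjusted p 0.543). No member passed, where 1.63% of the genes did (356 genes). The difference between the diets changed by 1.96 per 100 days for Hspa1a (SE 2.32, adjusted p 0.755) and by -0.53 for Hspd1 (SE 0.53, adjusted p 0.707). No member passed here either, where 0% of the genes did (limma, 0 called, 3348 at an unadjusted p under 0.05).

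On dim arrays alone the levels of Hspa1a cannot be ordered by group, since the spot was saturated on 15 of the 27, among them all 6 of LFC and 5 of 8 of HFC. They were 7.40 to 8.77 in LFC (n = 6), 7.19 to 8.58 in HFC (n = 8), 8.02 to 8.59 in HF5 (n = 6), 8.23 and 8.90 in HF20 (n = 2) and 7.07 to 9.40 in HF75 (n = 5). The probe that was never saturated ranged over these arrays from 3.01 to 4.40 in LFC, 1.32 to 4.54 in HFC, 0.99 to 3.75 in HF5, 2.34 to 2.60 in HF20 and 0.48 to 3.56 in HF75. On that probe LFC and HF20 did not overlap, and the other pairs of groups did. With only 2 HF20 arrays such a gap can arise with no difference behind it. The share of all genes without overlap between these arrays was not computed. These ranges are descriptions with no test.

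Members were also set against each other from array to array, within each class, as 36 pairs in each of 2 classes, by Pearson's r and Spearman's rho. Arrays of the same time point share the time on the diet and, mostly, a scan day. On the dim arrays all 36 correlations were positive and 20 passed a permutation test with Benjamini-Hochberg adjustment over the 72. The share of pairs outside the members that would pass was not computed, so this count is no result about the members. The pairs with the highest values were Hspd1 with Hspe1 (r 0.88, rho 0.87, adjusted permutation p 0.000103), Hspa8 with Hsph1 (r 0.87, rho 0.75, adjusted permutation p 0.000103) and Hsph1 with Hsp90aa1 (r 0.86, rho 0.78, adjusted permutation p 0.000103). Without the 2 arrays farthest from the median these were 0.91, 0.79 and 0.80. By r with the first gene, the second ranked at percentiles 99.99, 99.99 and 99.98 of all genes. Other pairs that passed ranked lower, such as Hspa8 with Hspe1 (90.4) and Hsph1 with Hspd1 (93.3).

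Under the main scaling Hspa1a stood outside this on the dim arrays. Its r with the other members ran from 0.14 to 0.39 and no pair passed, although its spot was saturated on 15 of those 27 arrays. Other scalings changed this only in part. Under quantile normalization its r was 0.68 with Dnajb1, 0.54 with Hspa8, 0.51 with Bag3 and 0.45 with Hsp90aa1. These pairs passed and its others did not. With normexp all its pairs passed, with r from 0.69 to 0.80. So did all 36 pairs of the members, whose median r was 0.83, above each of its values. On the 11 bright arrays, where it was never saturated, its r with Dnajb1 was 0.89 (rho 0.82, adjusted permutation p 0.00138), with Bag3 0.84 (rho 0.86, adjusted permutation p 0.00515) and with Hspb1 0.73 (rho 0.75, adjusted permutation p 0.0286). Its pairs with Hsp90aa1 (r 0.78, rho 0.80, adjusted permutation p 0.0121) and Hsph1 (r 0.78, rho 0.79, adjusted permutation p 0.0320, 10 arrays) also passed. Those with Hspa8, Hspd1 and Hspe1 did not. Without the 2 arrays farthest from the median, r was 0.82 with Dnajb1, 0.79 with Bag3 and 0.72 with Hspb1. It fell to 0.57 with Hsp90aa1 and 0.62 with Hsph1. Only the Hspa1a pair with Dnajb1 then passed (adjusted permutation p 0.0365). The highest bright value was that of Hsp90aa1 with Dnajb1 (r 0.92, rho 0.91, adjusted permutation p 0.000103, and 0.85 without the 2 arrays).

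Pairs of a cytosolic with a mitochondrial member had a median r of 0.30 on dim and 0.02 on bright arrays, and 6 of 14 and 0 of 14 passed. The pair of Hspd1 and Hspe1 had r 0.86 on bright arrays (rho 0.62, adjusted permutation p 0.0711), which fell to 0.30 without the 2 farthest arrays and so rested on them. The Hspd1 spot was saturated on 10 of these 11 arrays, so its bright correlations, those with the cytosolic members included, are not measures of its RNA.

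Outside the members, the gene most like each was found by r over the 27 dim arrays. For Hspe1 it was the predicted gene Gm2903 (r 0.95, and 0.99 on the bright arrays), which was also nearest to Hspd1 (r 0.92 and 0.91). For Hspa8 it was Gm7899 (r 0.90 and 0.77), for Hsph1 Tmed8 (r 0.91 and 0.14) and then the Hsp40 gene Dnajb4 (r 0.89 and 0.85), and for Hsp90aa1 Ppid, a cyclophilin cochaperone of Hsp90 (r 0.86 and 0.73). For Dnajb1 it was Gucy1b3 (r 0.92 and -0.07), for Bag3 Herc5 (r 0.90 and 0.33) and for Hspb1 Gm8144 (r 0.88 and 0.48). The genes nearest to Hspa1a, Gm6375 (r 0.74 and 0.23) and Cav1 (r 0.71 and 0.04), were found on arrays of which 15 had a saturated Hspa1a spot. Probes of predicted genes and of families such as Hsp70 can share sequence, and both Hspd1 probes list further model transcripts, so these likenesses may include signal from near copies.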

How the data were processed

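The authors deposited 1 scanner file per array with intensities from Agilent Feature Extraction (version 10.5.1.1 per the file headers; the submitters' processing notes name version 9.1). The processed intensity is background-corrected by that software. The deposited table of log2 folds, each relative to LFC at that time point, served as an alternative. Its Week 15 columns matched the arrays in array order and not by probe name.

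Processed intensities were scaled to the 75th percentile of each array in log2, outlier spots were dropped, spots of a probe averaged and the probe with the highest mean kept per gene name. A gene entered the fits if its spot was well above background on 6 or more of 38 arrays. Tests used limma 3.58.1 (R 4.3.3), with the time point as a block since each group has 1 array per time point, and Benjamini-Hochberg adjustment over 21862 genes at a threshold of 0.05. The pairing comes from the labelled time point. The boundary between bright and dim arrays was 600 intensity units. Normexp used an offset of 50. Pair tests used 100000 resamples. The number of arrays limits the precision. The fits were tested on simulated data, where changes of 2 on the log2 scale in HFC minus LFC were recovered for 62.7% of genes (67 simulated among 20949). The other comparisons recovered fewer, such as 53.7% in HF5 minus HFC and 2.99% for diet by day, there per 100 days. The simulated noise was drawn separately for each gene and array, with no brightness classes and no saturated spots.

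The members, gene lists, brightness boundary and named genes were chosen with earlier results of these data known. Named were all members, for each member the genes with the highest r on dim arrays, and in each list the genes past the threshold or with the smallest p. Hspa1b, which has no probe of its own name, makes the planned 45 pairs 36. No set test was run.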

Additional observations from a re-analysis of the deposited data

Results flagged for a closer look

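In groups of 4 to 10 arrays, the highest or lowest level was set against the gap to its neighbour by Dixon's criterion at 95%, over 45 combinations of a member and a group. Chance alone flags about 5% of such groups, and 3 arrays passed. Hspa8 was 7.56 on the HF5 array of W3, where the next highest HF5 value was 6.89. Hspa8 was 4.54 on the HFC array of D10, a bright array, where the next lowest HFC value was 6.08. Hsp90aa1 was 3.99 on the HF20 array of W6, also bright, where the next lowest HF20 value was 5.68.

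The test of differences among the doses called 21 of 85 chaperone list genes, where 13.4% of all genes passed. Of these, at most 5 per list are named, 15 in all, given here as HF20 minus HF5 in log2. Higher in HF20 were the mitochondrial genes Trap1 (2.19), Afg3l2 (1.95), Bcs1l (1.59), Lonp1 (1.32) and Grpel2 (1.097). Also higher were Hspa12a (1.69), Hspb6 (1.45), Bag4 (1.22), Tcp1 (1.09), Cct3 (0.94), Bag1 (0.83) and Fkbp4 (0.60). Lower in HF20 were Hspa12b (-1.96), the endothelial Hsp70 relative, and the endoplasmic reticulum chaperones Pdia4 (-1.08) and Hsp90b1 (-1.07). Of the 6 HF20 arrays 4 were bright and of the 6 HF5 arrays none was. With the brightness class as a covariate no gene passed this test.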

How the results depend on the processing

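The members' calls in the 8 comparisons of diet, dose and time changed little with the processing. Under alternatives that left out no time point, 7 of 846 member differences passed the threshold, and with 1 time point left out 3 of 540. Those were Hspb1 in HF20 minus HFC with array weights (1 member, -2.05), and in the test among the doses Hspd1 with the mean of all probes (1 member), Hspb1 with genes above background on every array (1), Hspb1 with the slide as a random block (1), and Hspa1a, Hspb1 and Hspd1 with array weights (3). Leaving out time points gave 0 to 2 members in that test, Hspb1 without W9 and Hspd1 and Hspe1 without W18.

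Counts of genes called moved more. For HFC minus LFC they were 1 with array weights, 5 with all 38 arrays in the fit, and 0 to 2 with a time point left out. For W3 to W18 they were 4 under quantile normalization, 1 with no filter or with the slide as a block, and 0 with normexp, with genes above background on every array, with the brightness class or with no replicate block for the time point, and 0 to 2 with a time point left out. The methods' t-test, run on 10 against 10 arrays of HFC and LFC, gave 905 genes at an unadjusted p under 0.05 and 0 after Benjamini-Hochberg adjustment. HF5 minus HFC gave 7 with array weights and 0 with any time point left out. HF20 minus HFC gave 5105 with array weights and 0 to 3596 with a time point left out. HF75 minus HFC gave 1 under quantile normalization, with genes above background on every array, with the brightness class and with array weights, and 0 to 1 with a time point left out. The test among the doses gave 0 with normexp, no filter or the brightness class, 6463 with the slide as a block, 8458 with array weights, 1237 with no replicate block, and 0 to 5394 with a time point left out. The trend over days gave 926 under quantile normalization, 661 with normexp, 165 with the mean of all probes, 68 with no filter, 76 with genes above background on every array, 2 with the scan day as a block, 1735 with the brightness class, 1459 with array weights, and 7 to 649 with a time point left out. Diet by day gave 668 with the brightness class, 863 with array weights and 0 to 373 with a time point left out.

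Some signs turned. In HFC minus LFC, Hspb1 was -0.19 with the brightness class and -0.31 at time points of the same class, Hspd1 was -0.19 with normexp and -0.062 with the slide as a block, and Hspe1 was 0.072 under quantile normalization and 0.058 with the brightness class. Hspa1a was -0.23 in HF5 with the brightness class, and in HF20, where it was -2.39, it was 0.58 with the brightness class and 0.44 at time points of the same class. It was -0.18 in HF75 with normexp. Its trend over days was -0.42 with normexp, -0.012 with the mean of all probes and -0.61 with the brightness class, and ran from -0.83 to 0.98 with a time point left out. HFC minus LFC of Hspd1 ran from -0.12 to 0.13 with a time point left out. The cause was not tested.

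For bright minus dim, which was added after the arrays were seen together with its alternatives and with the time points of the same class, no scaling and normexp each gave 5 members called in place of 8, and with no scaling Hspa8 (0.79), Hsp90aa1 (0.94), Dnajb1 (0.98) and Bag3 (1.11) reversed. Of these 4, Dnajb1 (adjusted p 0.0336) and Bag3 (adjusted p 0.0197) passed as higher in the limma fit with no scaling. Relative to the median of 2.07 over all genes in that fit these 4 were at -1.28, -1.13, -1.09 and -0.96. These values are nearly those with scaling by construction and are no separate check. Leaving out a time point or the HF75 array of W3 gave 7 to 9 members and 11179 to 13609 genes. Of the member pairs, 9 on bright arrays became 14 with normexp and 2 without the 2 farthest arrays, and 20 on dim arrays became 36 with normexp and 12 without the 2 farthest. Cytosolic minus mitochondrial kept its direction between the classes under each scaling tried. Saturation of Hspa1a on 15 dim arrays and of Hspd1 on 10 bright arrays makes their levels there lower limits. The same holds for Hspa8 on 3 bright arrays and 1 dim array, Hspb1 on 2 dim arrays and Hsp90aa1 on 1 bright array. The deposited table with its Week 15 columns in array order was also chosen after seeing the data, and no member passed in it.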
